A study of Homo sapiens with 10 samples.

Results

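The genes described here encode the helicase eIF4A, the eIF4F complex around it, and the proteins that stimulate or inhibit the helicase. The 10 members are EIF4A1, EIF4A2, EIF4A3, EIF4E, EIF4G1, EIF4G2, EIF4G3, EIF4B, EIF4H and PDCD4. They were chosen by name, and all 10 were found among the 55889 Ensembl gene IDs in the deposited files. The study sequenced ribosome-protected RNA fragments (called footprints) and, apart from them, total RNA. The cells were KOPT-K1, an established human line of T-cell acute lymphoblastic leukaemia (T-ALL). One group received the solvent DMSO and the other 25 nM silvestrol, each for 45 minutes, and all cells grew in RPMI with FBS and PSG. Each treatment had 2 libraries of footprints and 3 of total RNA, all from 1 cell line. The labels do not say whether replicates were separate cultures, so each p-value is set against library-to-library spread alone, and that spread may be technical.

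Cap-dependent initiation begins when eIF4E binds the cap of an mRNA and the scaffold eIF4G brings in eIF4A, an RNA helicase of the DEAD-box family that unwinds structure in the leader so that the small ribosomal subunit can scan. eIF4B and eIF4H stimulate the helicase, and PDCD4, known as a tumour suppressor, binds eIF4A and blocks it. Silvestrol, a plant natural product, holds eIF4A on RNA and keeps it from working in eIF4F, so these genes encode the drug's target and its partners. The comparisons ask whether the mRNAs for this machinery changed in level, or in footprints relative to their level, in the treated cells.

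The helicase paralogs carry the DEAD box, the motif that names the family, and its codons stand in capitals in the coding stretches printed here to show how alike EIF4A1 and EIF4A2 are. The sequences are from GENCODE release 29.
EIF4A1: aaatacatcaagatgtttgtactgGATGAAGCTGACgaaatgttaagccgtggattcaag
EIF4A2: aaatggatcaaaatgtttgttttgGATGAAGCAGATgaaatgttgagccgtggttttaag
EIF4A3: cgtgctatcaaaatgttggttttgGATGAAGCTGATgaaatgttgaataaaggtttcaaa
Over these 60 bases EIF4A1 and EIF4A2 had 50 identical bases. EIF4A1 and EIF4A3 had 41, and EIF4A2 and EIF4A3 had 45.

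Values are RPKM, read counts divided by the length of the gene and by the total of the library, so a loss of translation common to all genes would not be seen. RNA levels of different genes can be set side by side only as far as the gene lengths match the transcripts present. All annotated exons together span 5316 bases in EIF4A1 and 14067 in EIF4E, and a length with unused exons would lower the RPKM. Footprints lie mostly in coding sequence, which takes up from 4.63% (EIF4E) to 58.1% (EIF4G1) of the annotated exon length of the members. The values behave like counts over the full exon length, as given below for EIF4E, so footprint levels of different genes also move with that share. A gene length common to both assays cancels in the footprint to RNA ratio. That ratio still moves with the coding part of the transcripts present, where RNA reads of whole transcripts were counted. The depth, estimated from the value that 1 read takes in each library, was 1.66e+06 to 2.38e+06 reads for footprints and 1.27e+08 to 2.17e+08 for total RNA. Replicates of a group had a median SD of 0.18 to 0.19 in log2 units for footprints and 0.04 to 0.05 for total RNA. All 11 listed T-cell and T-ALL markers had a mean RNA level of at least 1 RPKM. None of 9 measured markers of other cells reached that level, and the highest of these was at 0.163 RPKM. In these bulk libraries, fewer cells of a type and less RNA per cell cannot be told apart.

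EIF4A1, the main cytoplasmic helicase of eIF4F and the drug's best known target, had nearly equal RNA levels in all libraries. They were 34.4, 34.1 and 34.4 RPKM in DMSO and 33.7, 34.9 and 34.9 RPKM in silvestrol. Its footprint levels were 9.38 and 8.72 RPKM in DMSO and 6.96 and 10.4 RPKM in silvestrol. The silvestrol libraries lay on both sides of the DMSO libraries, so the groups overlapped in both assays. EIF4A1 rested on an estimated 97.6 footprint reads per library. Its position among the genes is uncertain because 93.7% of the 28-base windows of its coding sequence also occur in ENSG00000264772, a transcript annotated on the same strand of the same locus. That ID was listed at a mean of 32.8 RPKM in RNA and 2.51 RPKM in footprints, beside 34.4 and 8.87 RPKM for EIF4A1 itself.

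EIF4A2, the closest paralog, which can take the place of eIF4A1 in eIF4F, was listed at a higher RNA level than EIF4A1, with the limit on EIF4A1 just given. Its RNA levels were 92.3, 89.2 and 91.3 RPKM in DMSO and 87.9, 96.8 and 92.5 RPKM in silvestrol. Its footprint levels were 16.1 and 15.9 RPKM in DMSO and 20.6 and 17.1 RPKM in silvestrol. Both silvestrol footprint libraries lay above both DMSO libraries, while the RNA groups overlapped. The introns of EIF4A2 host small nucleolar RNAs, and one of them, SNORA81, was listed at a mean footprint level of 1705 RPKM against 18.1 RPKM in RNA. The gene also overlaps RFC4, a replication factor subunit on the opposite strand at 49.3 RPKM in RNA. Whether reads of these genes entered the value for EIF4A2 was not tested, and the sources used here do not say whether the authors counted by strand.

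EIF4A3 belongs to the exon junction complex, which marks spliced mRNA, and not to eIF4F. It had the highest mean footprint level of the 10 genes in both groups. The footprint values were 126 and 106 RPKM in DMSO and 106 and 105 RPKM in silvestrol, and the RNA values ran from 82.8 to 85 RPKM in DMSO and from 81.6 to 84.8 RPKM in silvestrol. The groups met at 106 RPKM in footprints and overlapped in RNA, and the estimated depth was 1152 footprint reads per library.

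**Figure D1:**
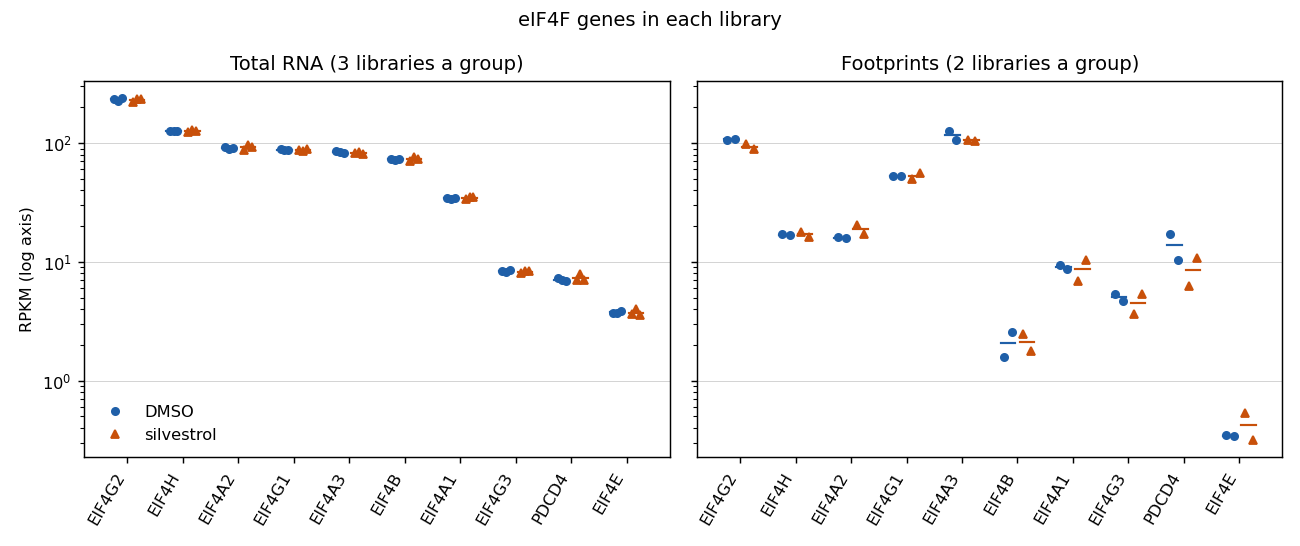
RPKM of each gene (log axis) in each library, total RNA at left and footprints at right, with DMSO as circles, silvestrol as triangles and short lines at the group means. In RNA the groups sit at nearly the same height for every gene, while in footprints EIF4B lies far under its place in the RNA order and the PDCD4 libraries spread from 6.21 to 17.1 RPKM.

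EIF4E, the cap-binding subunit, had the lowest RPKM of the 10 genes in both assays. Its RNA levels were 3.74, 3.74 and 3.87 RPKM in DMSO and 3.64, 4.01 and 3.57 RPKM in silvestrol. The footprint levels were 0.345 and 0.342 RPKM in DMSO and 0.538 and 0.314 RPKM in silvestrol, and the groups overlapped in both assays. This was an estimated 11.5 footprint reads per library, under the mean of 1 RPKM asked for in both assays, so EIF4E was the 1 member left out of the tests and 9 members were tested. Its coding sequence takes up only 4.63% of its annotated exon length, against a median of 29.6% over the genes tested. The estimated 11.5 reads stand beside 651 coding bases, and the 26.5 reads of EIF4B beside 1833. Per coding base EIF4E would therefore not be the lowest in footprints. The sources used here do not state the gene lengths the authors used. Taken over the full GENCODE exon length, untranslated parts included, estimated footprint reads came near whole numbers, as counts divided by that length would. They were 7.99 in the lowest and 18.0 in the highest library for EIF4E, and 22.0 and 35.9 for EIF4B.

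EIF4G1, the main scaffold of eIF4F, had steady values. Its RNA levels were 88.3, 87.2 and 87.5 RPKM in DMSO and 87.7, 86.0 and 88.9 RPKM in silvestrol, and its footprint levels were 53.2 and 53.1 RPKM in DMSO and 49.7 and 55.7 RPKM in silvestrol. Both assays overlapped between groups.

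EIF4G2 encodes DAP5, a relative of eIF4G that lacks the eIF4E-binding part and works in cap-independent or alternative initiation. It had the highest RNA level of the 10 genes, at 234, 227 and 239 RPKM in DMSO and 222, 236 and 233 RPKM in silvestrol. The footprint levels were 106 and 109 RPKM in DMSO and 97.8 and 88.6 RPKM in silvestrol, so both silvestrol libraries lay under both DMSO libraries. With an estimated 1805 footprint reads per library it was the most deeply measured of the 10. EIF4G3, another scaffold paralog, was about an order of magnitude lower than EIF4G1 in both assays. Its footprint levels were 5.39 and 4.64 RPKM in DMSO and 3.64 and 5.36 RPKM in silvestrol, and its RNA levels ran from 8.28 to 8.56 RPKM in DMSO and from 8.03 to 8.41 RPKM in silvestrol, with overlap in both assays.

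EIF4B and EIF4H, the RNA-binding cofactors that raise the activity of eIF4A, had high RNA levels and footprint levels that were low for their RNA. In DMSO footprints EIF4B lay at percentile 13.1 of the genes tested and EIF4H at percentile 72.8. EIF4B had 74.1, 71.4 and 73.6 RPKM in DMSO RNA and 71.2, 76.3 and 72.9 RPKM in silvestrol RNA, but only 1.58 and 2.55 RPKM in DMSO footprints and 2.46 and 1.76 RPKM in silvestrol footprints. That was an estimated 26.5 footprint reads per library. EIF4H was at 124 to 130 RPKM in all RNA libraries, with footprint levels of 17.1 and 16.8 RPKM in DMSO and 17.8 and 16.2 RPKM in silvestrol. For both cofactors the treatment groups overlapped in both assays.

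PDCD4, the inhibitor of eIF4A, was the member with the largest difference between treatments in footprints on the log2 scale. Its footprint levels were 17.1 and 10.4 RPKM in DMSO and 6.21 and 10.7 RPKM in silvestrol, a mean of 13.8 ± 4.74 against 8.46 ± 3.17 RPKM (SD, n = 2). The first DMSO library was high and the first silvestrol library low, and the other 2 nearly coincided, so the groups overlapped. Its RNA levels were 7.24, 7.08 and 6.94 RPKM in DMSO and 7.01, 7.87 and 7.01 RPKM in silvestrol. The value rested on an estimated 67.1 to 176 footprint reads per library. PDCD4 overlaps PDCD4-AS1 and BBIP1 on the opposite strand, which were at 3.22 and 2.93 RPKM in RNA and 1.15 and 2.56 RPKM in footprints. None of the coding windows of PDCD4 occurs in another annotated gene.

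Total RNA levels of the members were nearly the same in both treatments. By limma with Benjamini-Hochberg adjustment over 10297 genes, 0 of the 9 tested members were called at an adjusted p under 0.05, beside 0.282% of all genes tested (29 genes, 28 higher and 1 lower in silvestrol). None of the 9 reached an unadjusted p under 0.05 either, against 950 genes overall. The log2 changes of the members lay between -0.02 and 0.04, with a median of 0.0035 beside 0.0028 for all genes tested. The 95% intervals were narrow: that of EIF4A1 ran from -0.05 to 0.07 and the widest, that of PDCD4, from -0.07 to 0.14. None of the 10 genes had RNA groups that did not overlap, beside 13% of all genes tested.

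In footprints 0 of the 9 tested members were called by limma, beside 0.0486% of all genes tested (5 genes), and none had an unadjusted p under 0.05, against 719 genes overall. EIF4A2 and EIF4G2 were the 2 of 10 genes whose groups did not overlap, beside 38.3% of all genes tested. EIF4G2 lay in the lower direction, where 25.2% of genes did, and EIF4A2 in the higher, where 13.1% did. On the log2(RPKM + 0.5) scale EIF4G2 had a change of -0.21 (SE 0.12, 95% interval -0.50 to 0.09, limma adjusted p = 0.769). EIF4A2 had a change of 0.22 (SE 0.18, 95% interval -0.21 to 0.65, limma adjusted p = 0.810), and leaving out 1 library moved it to between 0.093 and 0.35. EIF4A1 was at -0.08 with an interval from -0.70 to 0.53, wide enough to hold sizeable changes in either direction. PDCD4 was at -0.68 (SE 0.35, 95% interval -1.53 to 0.17, limma adjusted p = 0.738). The PDCD4 value depended on single libraries. It was -0.31 without silvestrol replicate 1, -0.33 without DMSO replicate 1, -1.02 without DMSO replicate 2 and -1.05 without silvestrol replicate 2. The median over the tested members was -0.08, beside -0.07 for all genes tested.

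Translational efficiency, the footprint level relative to the RNA level, was fitted over all 10 libraries as the difference between the footprint change and the RNA change. No tested member was called by limma, beside 0.107% of all genes tested (11 genes), and none had an unadjusted p under 0.05, against 760 genes overall. The median log2 change of the members was -0.09, beside -0.08 for all genes tested, and 7 of the 9 lay under 0, beside 6169 of the 10297. Of those 7, EIF4G1 and EIF4H lay above 0 after median scaling, at 0.052 and 0.063. For EIF4A1 the change was -0.09 (95% interval -0.57 to 0.39). EIF4A2 was at 0.20 (-0.32 to 0.73), EIF4A3 at -0.11 (-0.50 to 0.27) and PDCD4 at -0.71 (-1.52 to 0.09). The scaffolds lay close to the median gene, with EIF4G1 at -0.01 (-0.37 to 0.34), EIF4G2 at -0.19 (-0.62 to 0.25) and EIF4G3 at -0.14 (-0.71 to 0.43). The cofactors were at 0.03 for EIF4B (-0.54 to 0.60) and -0.00085 for EIF4H (-0.38 to 0.38). When 1 spread was assumed for both assays, 5.29% of all genes tested were called (545 genes), but again none of the members, among which EIF4G2 had the lowest limma adjusted p, 0.186.

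**Figure D2:**
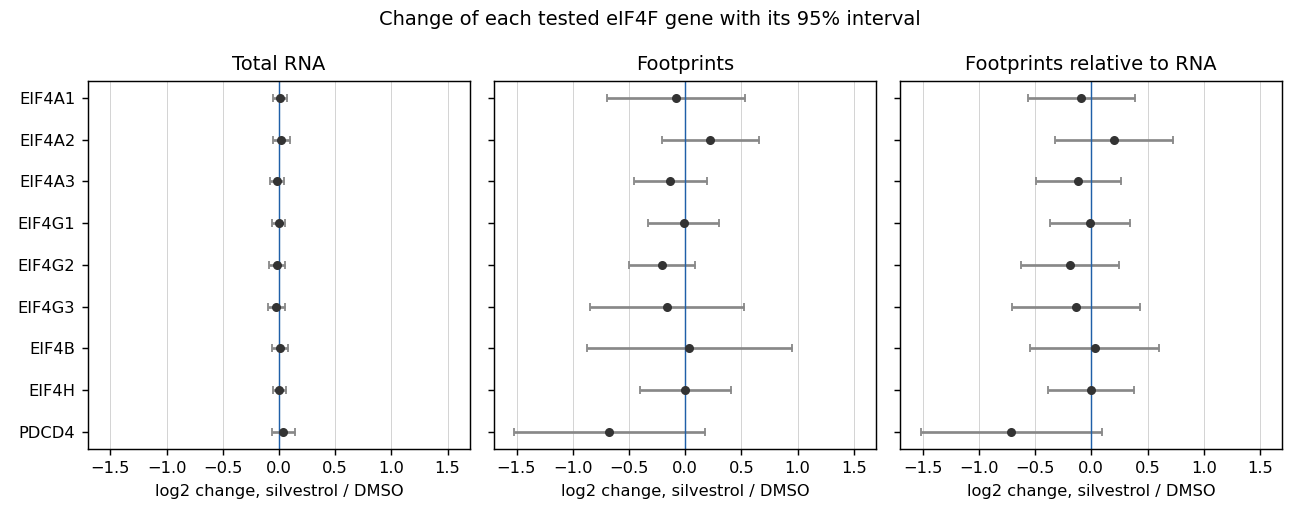
Log2 change from DMSO to silvestrol of each of the 9 tested genes (points) with its 95% interval (bars), for total RNA, footprints and footprints relative to RNA on 1 common axis, with a line at 0. All intervals include 0, those for RNA are much narrower than those for footprints, and PDCD4 lies farthest from 0 in footprints, at -0.68.

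The share of each paralog as listed differed more between the assays than between treatments. Of the summed RPKM of the helicase paralogs in DMSO RNA, EIF4A1 held 16.4% ± 0.146, EIF4A2 43.5% ± 0.314 and EIF4A3 40.1% ± 0.314 (SD, n = 3). In DMSO footprints the shares were 6.43% ± 0.342, 11.4% ± 1.09 and 82.2% ± 1.43 (SD, n = 2), the highest share being that of EIF4A3. Of the coding windows of 28 bases, 69.2% in EIF4A1 and 32.2% in EIF4A2 also occur in genes at other loci, against 0.0829% in EIF4A3, and EIF4A1 overlaps ENSG00000264772; their part in these shares was not tested. With silvestrol the footprint shares were 6.53% ± 1.87, 14.2% ± 1.78 and 79.3% ± 0.0847 (SD, n = 2). Footprint shares did not overlap between treatments for EIF4A2 (12.9% to 15.4% in silvestrol, 10.6% to 12.2% in DMSO) and EIF4A3 (79.2% to 79.4%, 81.2% to 83.2%). The same held for EIF4G1 in its own family. In footprint levels the groups of 38.3% of all genes tested did not overlap. EIF4G2 held 70.8% of the RNA and 64.9% of the footprints of the scaffold family in DMSO, and EIF4G3 held 2.55% and 3.03%.

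**Figure D3:**
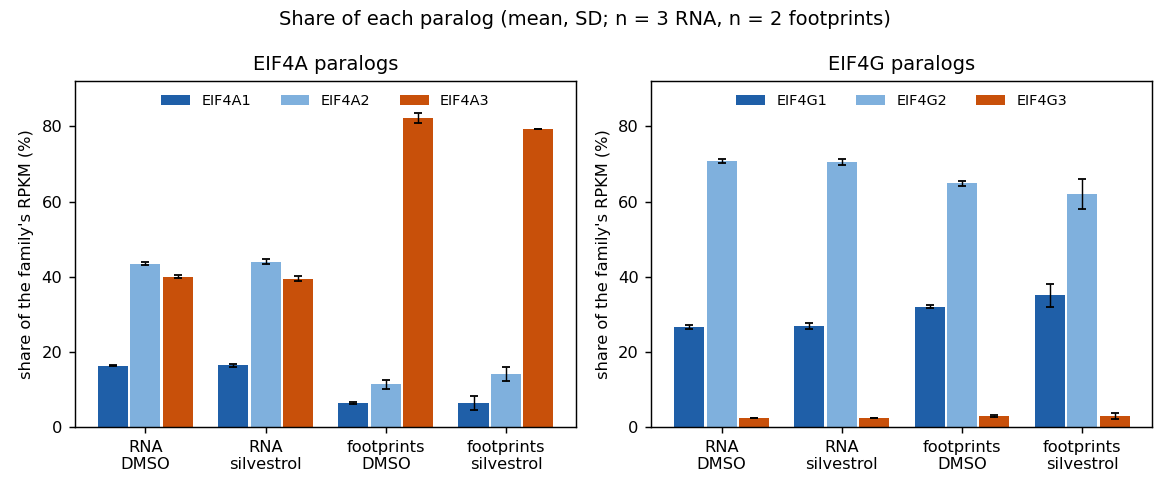
Share of each paralog in the summed RPKM of its family (bars from 0, mean with SD, n = 3 RNA and n = 2 footprint libraries), helicase paralogs at left and scaffold paralogs at right. EIF4A3 takes 40.1% of RNA and 82.2% of footprints in DMSO, beside EIF4A1 and EIF4A2 whose coding sequences are partly repeated at other loci, while the scaffold family keeps the same order in all 4 groups.

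Ratios between members within a library do not depend on how libraries are scaled, and 7 pairs were compared in each assay, 14 tests in all. The PDCD4 to EIF4A1 ratio in footprints, the inhibitor relative to its target, was 1.19 and 1.82 in the DMSO libraries and 0.892 and 1.03 in the silvestrol libraries, so the groups did not overlap. The EIF4G2 to EIF4G1 footprint ratio was 1.99 and 2.05 in DMSO and 1.59 and 1.97 in silvestrol, also without overlap. On the log2 scale the differences were -0.62 and -0.19, and leaving out 1 library moved them to between -0.93 and -0.32 and between -0.35 and -0.039. For both the exact permutation test, two-sided, gave p = 0.333, the smallest that 2 against 2 libraries allow, and p = 1 after Benjamini-Hochberg adjustment. The other 12 ratios overlapped between treatments, and in RNA, where 3 against 3 libraries cannot go below p = 0.1, the lowest exact p was 0.4.

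In RPKM, with the limit on gene lengths given above, members differed far more from each other than between treatments. In DMSO RNA the order from highest to lowest was EIF4G2, EIF4H, EIF4A2, EIF4G1, EIF4A3, EIF4B, EIF4A1, EIF4G3, PDCD4 and EIF4E, with no overlap between the ranges of neighbours. With silvestrol the order was the same, though the ranges of EIF4A2 and EIF4G1 then overlapped. In DMSO footprints it was EIF4A3, EIF4G2, EIF4G1, EIF4H, EIF4A2, PDCD4, EIF4A1, EIF4G3, EIF4B and EIF4E, where EIF4A3 overlapped EIF4G2 and EIF4A2 overlapped PDCD4. With silvestrol EIF4A2 stood above EIF4H and EIF4A1 above PDCD4, and in each of these pairs the ranges overlapped. The footprint order is one of RPKM, and the gaps differ per coding base. Over all footprint libraries EIF4G1 had an estimated 909 reads per library for 4797 coding bases. EIF4A2 had 225 for 1221, close to equal per coding base.

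The log2 ratio of footprint to RNA level in DMSO spanned the range of the genes tested. EIF4B, at -5.14, lay at percentile 0.156, so that only a few genes had fewer footprints for their RNA. EIF4E was at -3.46 (percentile 1.28), EIF4H at -2.90 (2.18), EIF4A2 at -2.51 (3.13) and EIF4A1 at -1.92 (6.36). The median of the genes tested was -0.43. EIF4G2 at -1.12, EIF4G3 at -0.74 and EIF4G1 at -0.72 lay between percentiles 20.6 and 35.8, while EIF4A3 at 0.47 (86.7) and PDCD4 at 0.96 (94.3) were high.

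The 5 members with the lowest ratio were also the 5 with more than 1 stretch of coding sequence repeated at other loci, and for each of them the gene that shared most was a pseudogene. Of the 28-base windows of their coding sequence, the share also found in an annotated gene at another locus was 89.3% for EIF4E, 87.4% for EIF4B, 69.2% for EIF4A1, 65.4% for EIF4H and 32.2% for EIF4A2. It was 0.0829% for EIF4A3 and 0 for EIF4G1, EIF4G2, EIF4G3 and PDCD4. With windows of 50 bases the shares were 82.1%, 70.2%, 42.4%, 52.4% and 9.3% for the first 5 and 0 for the rest. The window lengths were chosen after the ratios had been seen, and the sources used here do not give the length of the authors' footprint reads. Stretches of EIF4A1 and EIF4B are printed with the copy that shares most of their windows, to show what such a shared stretch looks like: capitals mark the bases that differ.
EIF4A1: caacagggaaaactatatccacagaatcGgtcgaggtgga
EIF4A1P10: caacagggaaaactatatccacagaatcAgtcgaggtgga
EIF4B: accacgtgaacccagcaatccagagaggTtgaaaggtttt
EIF4BP6: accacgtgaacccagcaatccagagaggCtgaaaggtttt
Each pair was taken at the end of an identical run, of 136 bases for EIF4A1 and 216 for EIF4B. Over the 40 bases shown, 39 were identical in both pairs, 28 of them by the way the stretch was chosen. Chosen in the same way, EIF4A2 and EIF4A2P4 had 29 identical bases after a run of 85, and EIF4H and EIF4HP1 had 30 after a run of 246.

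The same relation of shared sequence to footprint level held across the genes tested, as a description over genes that are not independent. Of 9053 tested genes with an annotated coding sequence, 5904 had no shared window, and their median log2 footprint to RNA ratio in DMSO was -0.33. The median was -0.50 for shares above 0 to 10%, -0.85 above 10 to 30%, -1.46 above 30 to 60% and -2.55 in the 282 genes above 60%. In that last class EIF4A1 lay above the median, EIF4H lay under it but within the middle 50%, and EIF4B lay under the middle 50%, which ran from -3.58 to -1.44. EIF4E, not among the genes tested, had a share above 60% too and a ratio inside that range. EIF4A2 lay under the middle 50% of the class above 30 to 60%, which ran from -2.04 to -0.90. The sources used here do not say how the authors treated reads with more than 1 mapping place, and the part of shared sequence in these footprint levels was not tested.

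**Figure D4:**
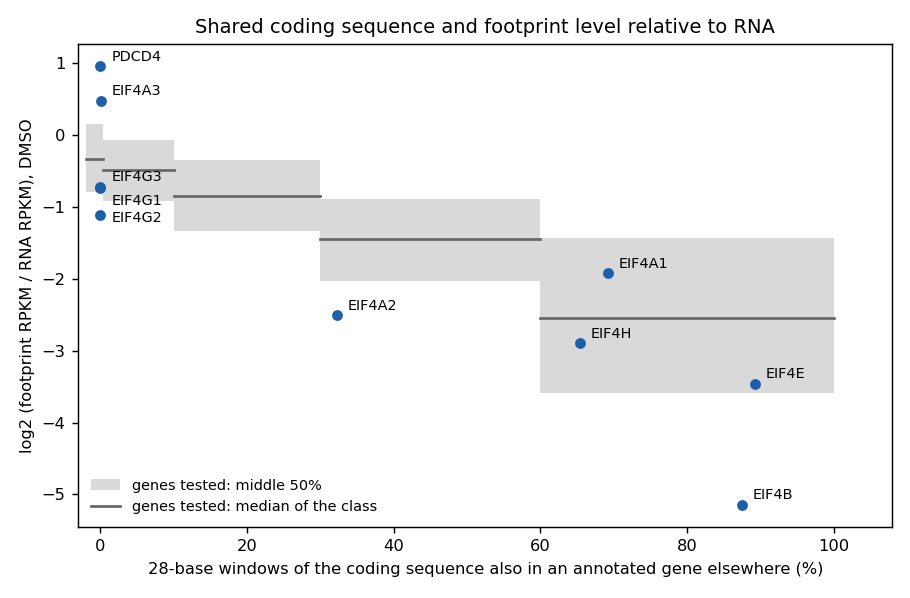
Share of the 28-base windows of the coding sequence that also occur in an annotated gene elsewhere (horizontal, %) against the log2 ratio of footprint to RNA RPKM in DMSO (vertical) for the 10 genes (points). Grey boxes give the middle 50% and dark lines the median of the genes tested in 5 classes of share, with the class at 0 drawn just left of 0 so that it can be seen. The classes step down from left to right, EIF4E and EIF4B lie at the lower right, and PDCD4 and EIF4A3 lie at the upper left. EIF4E also has the lowest coding share of exon length among the 10 genes, 4.63%.

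Some copies had footprint values of their own. EIF4EP2, a copy of EIF4E, was at 6.97 and 11.3 RPKM in DMSO footprints and 6.01 and 7.77 RPKM in silvestrol footprints, above EIF4E itself, with only 0.622 RPKM in RNA. Its groups overlapped. EIF4HP1, a copy of EIF4H, was at 11.6 and 13.1 RPKM in DMSO footprints and 8.57 and 28.6 RPKM in silvestrol footprints, with 1.29 RPKM in RNA. The second silvestrol library was the high one, and the groups overlapped. Summed over copies, the footprint level was 8.52 RPKM for the 5 copies of EIF4E, 15.9 RPKM for the 2 of EIF4H, 6.11 RPKM for the 13 of EIF4A1, 2.26 RPKM for the 9 of EIF4B and 0.983 RPKM for the 5 of EIF4A2. The copies are short, so these sums stood for an estimated 11.3, 22.2, 14.0, 8.76 and 2.25 reads per library.

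Leader length, a feature that bears on how much unwinding an mRNA needs, varied widely among the members. The annotated 5' UTR of the principal transcript had 16 nt in EIF4A1 (percentile 1.86 of the genes tested) and 64 nt in EIF4A2, and it had 511 nt in EIF4G2 and 1525 nt in EIF4E, against a median of 196 nt. The other 6 members lay between 139 and 326 nt. For EIF4E the leader length depends on which annotated start is taken. Its RefSeq start window, chr4:98929084-98929383 on the minus strand, lies downstream of the GENCODE gene end at 98930637. A leader from the RefSeq start may thus be much shorter, and which start these cells used was not tested. A run of 4 GGC or 4 CGG repeats, searched on the transcript strand, was in 0 of the 10 principal leaders, beside 4.70% of the 8885 tested genes with a leader. One alternative transcript of EIF4G3 carried it, with the 4 repeats first met in capitals here; another CGG follows them.
EIF4G3: ccggagCGGCGGCGGCGGcggcag

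A C followed by at least 4 pyrimidines at the first base of a transcript marks a group of mRNAs, among them those for ribosomal proteins, whose translation follows mTOR activity. In the RefSeq windows around transcript starts (GRCh38.p14), 14 windows matched the 10 members, and this start was found for EIF4A2 and EIF4B, beside 4.07% of all 35116 windows. The stretches around the starts of EIF4A2, EIF4B and, for comparison, EIF4A1 are printed with the pyrimidines from the first base of the transcript in capitals. They come from the windows chr3:186783327-186783626, chr12:53006206-53006505 and chr17:7572575-7572874, all on the plus strand.
EIF4A2: gcgccgctgtCTTTTCagtcgggcg
EIF4B: tcatccgggtCTTTTgcgttctctt
EIF4A1: ggcactccgcCCTagtttctaagga
The search covered the transcript strand alone and shows only which letters stand at the annotated start.

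A list of 31 regulators and partners of eIF4F gave the surroundings of the members, with 29 found and 27 tested. By limma none was called in RNA, footprints or translational efficiency. In these comparisons 1, 2 and 3 of them had an unadjusted p under 0.05, beside 950, 719 and 760 of all 10297 genes tested. The median log2 changes were -0.0040, -0.14 and -0.09, beside 0.0028, -0.07 and -0.08 for all genes tested. EIF4EBP1 and EIF4EBP2, which hold eIF4E away from eIF4G, had efficiency changes of -0.10 (95% interval -0.51 to 0.32) and -0.32 (-0.79 to 0.15). MKNK1 and MKNK2, the kinases that phosphorylate eIF4E, were at 0.07 and -0.06, and MTOR, whose kinase phosphorylates the eIF4E-binding proteins, was at -0.15. DDX3X, another DEAD-box helicase, was at 95.3 RPKM in DMSO RNA and 82.0 RPKM in silvestrol RNA, with a log2 change of -0.22 and an SE of 0.06 (limma adjusted p = 0.226), and was at -0.06 in efficiency. PABPC1, the poly(A)-binding protein that contacts eIF4G, was at 33.9 ± 2.62 RPKM in DMSO footprints and 26.6 ± 0.919 RPKM in silvestrol footprints (SD, n = 2), with an efficiency change of -0.36 (SE 0.16). Its limma adjusted p was 0.656, and 0.0309 with 1 spread for both assays. With that assumption, under which 411 of all 10297 genes tested were called lower and 134 higher (5.29% in all), 3 more genes of the list were called lower, named here after their values were seen: PABPC4 at -0.63 (limma adjusted p = 0.0068, and 0.313 with the weights used here), PAIP2 at -0.51 (0.0079 and 0.598) and LARP1 at -0.34 (0.0339 and 0.736). PABPC4 is another poly(A)-binding protein, PAIP2 binds and inhibits PABPC1, and LARP1 binds mRNAs with a pyrimidine start. Footprint replicates varied more than RNA replicates, so 1 spread for both assays understates the spread of footprints. Of the 27 tested list genes 18 lay under 0 in efficiency and 9 above, beside 6169 and 4128 of all genes tested. The largest efficiency change of the list was a rise, that of RPS6KB2 at 0.69 (limma adjusted p = 0.691 with the weights used here).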

How the data were processed

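The files that the authors deposited hold RPKM values, 1 file per library, with 55889 Ensembl IDs in each. The submitters' processing notes name STAR and hg19. Which counting tool, annotation, gene lengths and strand setting were used, and what was done with reads of several mapping places, was not given in the sources used here. Symbols were found for 49395 IDs. Members and lists were chosen with earlier results of these data known.

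Genes with a mean of at least 1 RPKM in both assays (10297) were tested on log2(RPKM + 0.5), on which the change of a low gene is understated, with limma 3.58.1 in R 4.3.3, two-sided, with Benjamini-Hochberg adjustment over all of them. RNA and footprints were fitted apart. Translational efficiency was the interaction over all 10 libraries with 1 weight per assay (footprints 0.119, RNA 4.12), since footprint replicates varied more. The fits were also run on simulated data with a spread set in advance, which does not show how they behave at the spread of these libraries.

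Read counts were not used here. Depth was estimated from the value of 1 read in genes with 1 transcript: 90.3% to 92.9% of low values were whole multiples within 0.05, and lengths were those of GENCODE release 29. That release is on another build, so it served for lengths, sequences and overlaps only. Windows were looked up on both strands of its transcripts, and copies were genes named after a member with P and a number. The genes to be named were the 10 members, 7 regulators fixed by name and, from the list, any that were called. None of the list was called in the main fits. PABPC4, PAIP2, LARP1 and RPS6KB2 were named after their values were seen. A protein table was not used here, so protein sequences were not compared. Groups and replicate numbers came from the sample titles. Alternatives were the pseudocount, the filter, the scaling, the weights, a replicate block and leaving out each library.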

Additional observations from a re-analysis of the deposited data

How the results depend on the processing

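No alternative called any member, and the lowest limma adjusted p over members and settings was 0.186. Of 381 member changes under an alternative, 342 kept their direction and 39 did not. Counts over all genes moved more, and their cause was not tested.

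Without the filter on low values, RNA calls went from 1 lower and 28 higher to 0 and 0, footprint calls from 3 and 2 to 1 and 1, and efficiency calls higher from 2 to 7. With a minimum of 5 RPKM there were 2 RNA calls lower, 0 footprint calls lower and 1 efficiency call higher. A pseudocount of 0.1 gave 0 footprint calls lower. Median scaling gave 2 RNA calls lower. Quantile normalization gave 0 RNA calls lower, 5 footprint calls higher and 4 efficiency calls higher. With 1 spread for both assays efficiency calls went from 9 lower and 2 higher to 411 and 134.

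Median scaling turned the log2 change of EIF4B (-0.0050), EIF4H (-0.0096) and EIF4A1 (-0.0050) in RNA, EIF4G1 in footprints (0.037), and EIF4H (0.063) and EIF4G1 (0.052) in efficiency. It also moved the median efficiency change of all genes from -0.08 to -0.01. Quantile normalization turned EIF4G1 in RNA (0.0049), footprints (0.028) and efficiency (0.023), and EIF4H in efficiency (0.073), as did 1 weight per library (0.0027).

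Replicate numbers did not pair the samples: same-numbered deviations correlated at 0.04, -0.33 and 0.15 in RNA and -0.03 in footprints. With the replicate block there were 8 lower and 49 higher RNA calls, 0 and 1 footprint calls and 4 efficiency calls higher, and no member was called.

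Where 1 library of footprints was left out, the lone library of its group was assumed to vary like the others. Leaving out 1 library at a time gave 0 to 5 lower and 0 to 30 higher RNA calls, 0 footprint calls in either direction, and 6 to 32 lower and 2 to 12 higher efficiency calls. Member changes ranged as follows in RNA: EIF4A1 -0.00020 to 0.025, EIF4A2 -0.012 to 0.057, EIF4B -0.019 to 0.030, EIF4G1 -0.013 to 0.010, EIF4G2 -0.038 to 0.0075, EIF4H -0.015 to 0.019 and PDCD4 -0.014 to 0.064. In footprints EIF4A1 ranged from -0.36 to 0.19, EIF4A2 from 0.093 to 0.35, EIF4A3 from -0.26 to -0.0068, EIF4B from -0.24 to 0.31, EIF4G1 from -0.096 to 0.067, EIF4G3 from -0.41 to 0.091 and EIF4H from -0.063 to 0.069. In efficiency EIF4A1 ranged from -0.36 to 0.18, EIF4A2 from 0.071 to 0.33, EIF4A3 from -0.24 to 0.0094, EIF4B from -0.25 to 0.31, EIF4G1 from -0.094 to 0.069, EIF4G3 from -0.39 to 0.11, EIF4H from -0.067 to 0.065 and PDCD4, which kept its direction, from -1.08 to -0.34.

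The log2 differences in RNA ratios ranged from -0.012 to 0.033 for EIF4A2 to EIF4A1, -0.047 to 0.011 for EIF4G2 to EIF4G1, -0.017 to 0.0097 for EIF4H to EIF4B, -0.080 to 0.028 for EIF4E to EIF4G1 and -0.015 to 0.068 for PDCD4 to EIF4A1. In footprints they ranged from -0.11 to 0.74 for EIF4A2 to EIF4A1, -0.34 to 0.25 for EIF4A3 to EIF4A1, -0.36 to 0.032 for EIF4G3 to EIF4G1, -0.41 to 0.31 for EIF4H to EIF4B, -0.20 to 0.74 for EIF4E to EIF4G1, -0.35 to -0.039 for EIF4G2 to EIF4G1 and -0.93 to -0.32 for PDCD4 to EIF4A1. With silvestrol in place of DMSO the footprint ranks were 4 for EIF4A2, 5 for EIF4H, 6 for EIF4A1 and 7 for PDCD4.

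Depth limits the footprint results: EIF4E, EIF4B and PDCD4 rested on an estimated 11.5, 26.5 and 105 reads per library. EIF4E could be fitted only without the filter, with log2 changes of -0.02 in RNA, 0.12 in footprints and 0.14 in efficiency, none called.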

Other observations

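The genes whose profile over the 10 libraries was most like that of EIF4A1, by the Euclidean distance of log2(RPKM + 0.5) after each gene's own mean was taken off, were CCT6P1 at 0.197, UQCRFS1 at 0.197, WDR82 at 0.206, MAD2L1 at 0.243 and VEZF1 at 0.245. The median distance of the genes tested was 2.42. Among the members EIF4A2 was nearest, at 0.965 and rank 667, and EIF4B was farthest, at 4.63 and rank 9773. The distance takes in the gap between RNA and footprint levels, so a likeness in that gap is part of the choice: UQCRFS1 had mean levels of 72.2 RPKM in RNA and 20.1 RPKM in footprints, and WDR82 59.5 and 14.8 RPKM.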
